A study of Homo sapiens with 4 samples.

Results

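Long intergenic noncoding RNA (lincRNA) genes that were expressed in MDA-MB-231 cells are described here. They were chosen by their measured level, as the rows that the deposited table types as lincRNA and whose mean over the 4 libraries was at least 1 FPKM (fragments per kilobase of gene scaled to the reads counted in the library), leaving out the snoRNA host genes named SNHG with a number, GAS5 and ZFAS1. Of 48162 genes in the table, 6015 were typed lincRNA, 1646 of those had a read in any library and 215 reached the level. SNHG15 and SNHG8 were left out by name, so 213 genes remained among the 11790 genes of all types at or above 1 FPKM. The level over all 4 libraries chose the genes, so their levels are a description. The difference between the groups was not used in that choice. A gene with a mean below 1 FPKM in 1 group could still pass through the other, as 32 genes did. Which single genes and lists are described was decided with earlier results of these data known.

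MDA-MB-231 is an established human cell line from a triple-negative breast cancer, a tumour type without estrogen and progesterone receptors or HER2 amplification. Cells received a vehicle control (2 libraries) or 10 uM MGH-CP1 (2 libraries) for 24 hours. MGH-CP1 is a small-molecule inhibitor of the palmitoylation of TEAD proteins, the transcription factors that act with YAP and TAZ at the end of the Hippo pathway. Poly(A)-selected RNA was sequenced, and all values come from a single cell line. The labels do not say whether the libraries of a group came from separate cultures, so p-values here reflect no more than library-to-library spread, possibly technical. In bulk RNA a smaller share of cells that carry a transcript and less of it per cell cannot be told apart.

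A lincRNA is transcribed and usually capped, spliced and polyadenylated like a messenger RNA, but has no long reading frame. Some act on chromatin or as scaffolds of nuclear bodies, some bind and titrate proteins or microRNAs in the cytoplasm, and some are precursors of microRNAs. Many are short, of low level and cleared by the nuclear exosome, and many lie next to a protein-coding gene with which they share a promoter or a stretch of transcription.

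The libraries held 16790645 to 18485701 reads on genes. The lincRNA genes took 0.265% and 0.282% of these reads with vehicle and 0.312% and 0.324% with MGH-CP1. NORAD alone took 31.5% and 32.8% of the lincRNA reads with vehicle and 38.5% and 37.7% with MGH-CP1. Without NORAD the shares of the library were 0.182% and 0.189% against 0.192% and 0.202%. Their summed FPKM without NORAD went the other way, 980 and 997 with vehicle and 956 and 966 with MGH-CP1. The mesenchymal markers VIM (147 to 199 FPKM) and CD44 (271 to 343 FPKM) were high, ESR1 reached no more than 0.00912 FPKM and PGR was listed at 0, and the leukocyte gene PTPRC stayed at or below 0.0895 FPKM. The proliferation marker MKI67 was at 75.8 and 85.3 FPKM with vehicle and at 28.5 and 32.1 FPKM with MGH-CP1. Its part in the results below was not tested.

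With MGH-CP1, 38 of the 213 lincRNA genes rose (17.8%) and 41 fell (19.2%), by limma on log2(FPKM + 1) with Benjamini-Hochberg adjustment over all 11790 genes and an adjusted p under 0.05. Among all genes tested 20.0% rose and 25.1% fell, 45.0% in either direction, against 37.1% of the lincRNA genes and 46.5% of the genes typed protein-coding. The median log2 difference (MGH-CP1 minus vehicle) was -0.03 over the lincRNA genes and -0.02 over all genes. Without MGH-CP1 replicate 2 the count of higher lincRNA genes was 22, and that of all genes was 1460, beside 1524 without MGH-CP1 replicate 1 and 2355 with all libraries. Differences of at least 2-fold on this scale were called for 2 higher and 6 lower lincRNA genes, 0.939% and 2.82%, beside 0.992% and 2.34% of all genes. The 2 groups of libraries did not overlap for 120 lincRNA genes (56.3%), beside 74.1% of all genes.

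The lincRNA genes were lower and shorter than the other genes, with a median level of 2.46 FPKM against 9.66 and a median length of 1274 bases against 3266. The share called followed the level. Between 1 and 2 FPKM 22.6% of 84 lincRNA genes passed the test, beside 24.3% of all genes in that range. Between 2 and 5 FPKM the shares were 40.0% and 35.4%, and between 5 and 20 FPKM they were 55.3% and 48.0%. At 20 FPKM or more 4 of 7 lincRNA genes passed (57.1%, beside 55.9%). The difference between the sets within a range was not tested.

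Many of the genes rested on few reads. The lowest read number of a gene in any library had a median of 43 over the lincRNA genes and ranged from 2 to 15448, and 62 genes fell below 20 reads in at least 1 library. The median absolute log2 difference between the vehicle libraries was 0.25 for those 62 genes and 0.12 for the 27 genes with 200 or more reads in every library. Of the 79 calls, 21 were among those 62 genes, and 16 were among the 59 genes with 20 to 50 reads. Over all genes tested, at any read number, 45.0% were called. One group mean was below 1 FPKM for 32 genes, 13 with vehicle and 19 with MGH-CP1, and 5 of these were called higher and 11 lower. These genes passed the rule only through the group where they were high. Among the genes named below, those under 1 FPKM with MGH-CP1 included CTD-2267D19.6, RP5-1172A22.1, SFTA1P, MIR137HG, RP11-13N13.2 and RP11-535M15.1. Those under it with vehicle included RP11-336A10.5, RP5-1057J7.7, RP11-218C14.8, ERRFI1-DT, MIR3142HG, FAM157A and LINC00341. At the limit of the rule, FAM157A and RP11-535M15.1 (both 1.01 FPKM on average) and LINC00341 (1.02 FPKM) were just inside, and CTD-2587H24.10 (0.998 FPKM), RP11-258C19.5 (0.992 FPKM) and AC092614.2 (0.965 FPKM) were just outside.

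**Figure D1:**
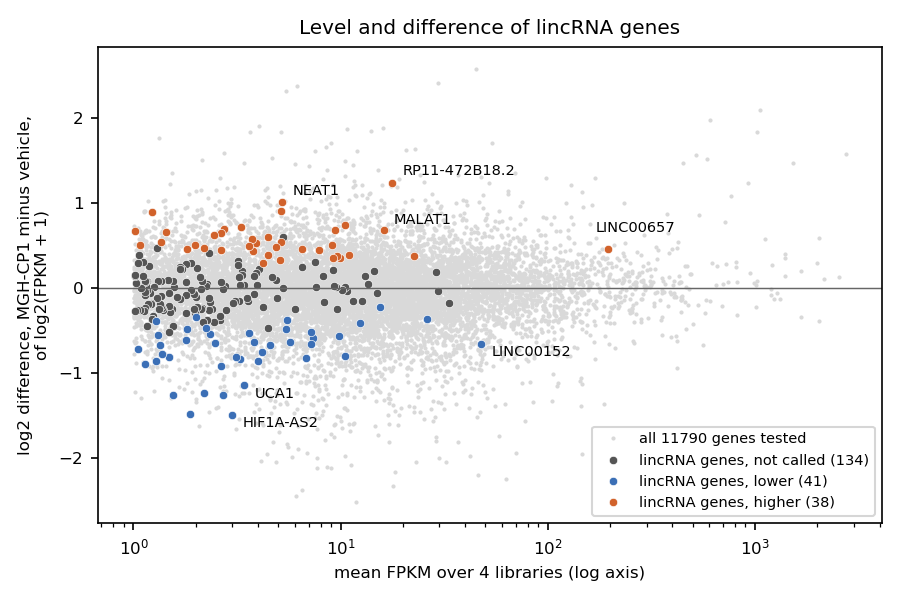
Mean level over the 4 libraries (FPKM, log axis) against the log2 difference between MGH-CP1 and vehicle of log2(FPKM + 1). Grey points are all 11790 genes tested and coloured points the 213 lincRNA genes, 38 called higher, 41 lower and 134 not called. LINC00657 (NORAD) lies far to the right of the other lincRNA genes, and the largest falls lie below 5 FPKM.

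NORAD, listed under its older name LINC00657 (ENSG00000260032, hg19 chr20:34633544-34638882, minus strand), was the most abundant lincRNA gene. It is a cytoplasmic RNA that binds Pumilio proteins, repressors of messenger RNAs for mitosis and DNA repair, and is required for stable chromosome numbers. It was at 157 and 173 FPKM with vehicle and at 225 and 229 FPKM with MGH-CP1. Both MGH-CP1 libraries lay above both vehicle libraries, and the gene rose by 0.46 ± 0.07 (log2 difference ± SE, limma adjusted p = 0.0014).

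Its known feature is a row of Pumilio response elements, written here as TGTANATA, with N any base. The transcript of 5339 bases held 15 of them on its own strand, 10 as TGTATATA, 4 as TGTAAATA and 1 as TGTACATA, which is 2.81 per kilobase. Of 144 lincRNA genes with a transcript in GENCODE 29, 120 held none, 24 held at least 1 and 5 held 3 or more. The nearest to NORAD was HCG11, an RNA from the major histocompatibility region, with 16 elements in 5696 bases, again 2.81 per kilobase. No other lincRNA gene exceeded 0.803 per kilobase. The stretches around the closest pair of elements in each are shown, with the elements in capitals, because they show the repeat and the likeness of both RNAs (bases 1390 to 1509 of NORAD, 1383 to 1502 of HCG11, GENCODE 29 transcripts):
NORAD: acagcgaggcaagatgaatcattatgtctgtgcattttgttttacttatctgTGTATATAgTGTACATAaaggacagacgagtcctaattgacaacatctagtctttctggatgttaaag
HCG11: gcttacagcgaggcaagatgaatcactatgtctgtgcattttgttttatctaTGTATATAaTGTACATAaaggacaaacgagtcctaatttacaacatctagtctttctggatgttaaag

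The pair of elements stands in the same surroundings in both RNAs. Stretches of at least 20 bases identical to NORAD covered 56.2% of the HCG11 transcript, and 4.04% of its 50-base windows were found unchanged in NORAD. HCG11 was at 1.45 and 1.74 FPKM with vehicle and at 2.24 and 2.12 FPKM with MGH-CP1, a difference of 0.29 that was not called. Its level is far below NORAD's in each library, so reads that fit both could weigh on it, and its value is uncertain. The reported NORAD-binding proteins were not among the genes that rose. Of 8 of them, none rose and 4 fell (beside 20.0% and 25.1% of all genes), with a median log2 difference of -0.25. PUM2, a Pumilio protein, was at 31.9 and 29 FPKM in the group means (-0.13) and was not called, but was called without vehicle replicate 1 (-0.20). ALYREF, an export adaptor, went from 93.1 to 48.9 FPKM (-0.91 ± 0.08, limma adjusted p = 0.000154) and PRPF19, of the spliceosome, from 61.8 to 32.6 FPKM (-0.90 ± 0.07, limma adjusted p = 8.3e-05).

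NEAT1 and MALAT1, neighbours on chromosome 11, are nuclear RNAs. NEAT1 (ENSG00000245532, hg19 chr11:65190245-65213011, plus strand) is the scaffold of paraspeckles, nuclear bodies that hold RNA-binding proteins. It was at 2.77 and 3.49 FPKM with vehicle and at 7.44 and 7.21 FPKM with MGH-CP1. The groups did not overlap, and NEAT1 rose by 1.02 ± 0.11 (limma adjusted p = 0.000366). The table divides its reads by 22743 bases, the length of the long isoform, and does not separate the short polyadenylated isoform. Since the libraries were poly(A)-selected, the level may stand mainly for the short isoform. Whether the long isoform rose was not tested.

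MALAT1 (ENSG00000251562, hg19 chr11:65265233-65273940, plus strand), an RNA of nuclear speckles, was at 12.1 and 12 FPKM with vehicle and at 17 and 23.4 FPKM with MGH-CP1. It rose by 0.68 ± 0.13 (limma adjusted p = 0.00494), a call that was lost with no filter on level (limma adjusted p = 0.0673). The second MGH-CP1 library was the higher of the pair, and both lay above the vehicle libraries. Poly(A) selection recovers MALAT1 poorly, since its mature end carries no poly(A) tail. JPX, an RNA of the X-inactivation centre, went the other way, from 8.78 and 8.50 FPKM to 5.72 and 5.78 FPKM (-0.51 ± 0.08, limma adjusted p = 0.00165). RMRP, the RNA of RNase MRP, listed as RP11-331F9.10, was at 7.87 and 11.1 FPKM against 10.1 and 8.80 FPKM, and the groups overlapped. NEAT1, MALAT1, JPX, RMRP and NORAD come from a list of 18 regulatory lincRNAs, drawn up as RNAs that act or stay in the nucleus. NORAD, described above as cytoplasmic, goes against that heading. Of these 5 genes, 3 rose and 1 fell, beside 20.0% and 25.1% of all genes.

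The proteins of paraspeckles were measured for comparison. Of 35 tested, 25 fell and none rose, with a median log2 difference of -0.34. Over all genes 25.1% fell, 20.0% rose and the median was -0.02. NUDT21, a subunit of the cleavage factor that sets 3′ end choice, went from 28.8 to 15.7 FPKM (-0.84 ± 0.06, limma adjusted p = 7.4e-05), and RBMX, a splicing regulator, from 49.3 to 29.1 FPKM (-0.74 ± 0.05, limma adjusted p = 8.3e-05). The core proteins, named here after their values were seen, also fell: SFPQ from 69.2 to 52.1 FPKM and NONO from 128 to 103 FPKM. NEAT1, with its isoforms not separated, rose while most genes of its protein partners fell at the RNA level.

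Of the other 8 genes among the 10 highest, LINC00152 (CYTOR, ENSG00000222041, hg19 chr2:87754887-87906324, plus strand) was second. It is a cytoplasmic RNA widely studied in tumours. It was at 63.1 and 54.1 FPKM with vehicle and at 38.0 and 35.7 FPKM with MGH-CP1, and fell by 0.65 on the log2 scale (SE 0.08, limma adjusted p = 0.000798). CYTOR has a near-identical copy elsewhere on chromosome 2, so its reads may be shared with that copy.

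RP11-472B18.2 (ENSG00000238206, hg19 chr4:39549456-39551432, plus strand) had the largest rise of all lincRNA genes. It was at 7.83 and 12.9 FPKM with vehicle and at 24.6 and 25.5 FPKM with MGH-CP1, a rise of 1.23 ± 0.18 (limma adjusted p = 0.00172). It ends 1109 bases from the convergent gene SMIM14, which rose from 7.94 to 22.3 FPKM (1.38). RP11-220I1.1 rose by 0.38 (18.1 and 21.1 to 25.7 and 25.6 FPKM), and RP11-513I15.6 fell by 0.37 (29.7 and 29.7 to 22.5 and 23.1 FPKM). AC092171.4 fell by 0.22 (16.3 and 17.4 to 14.3 and 14.2 FPKM). That call was lost when vehicle replicate 2, MGH-CP1 replicate 1 or MGH-CP1 replicate 2 was left out. It was also lost with no level filter, quantile normalization or no mean-variance trend. The remaining abundant genes, CTC-503J8.6 (-0.18), LINC00493 (-0.03) and RP11-343N15.5 (0.19), were not called. Without vehicle replicate 2, CTC-503J8.6 (-0.25) and RP11-343N15.5 (0.35) were called.

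Falls led the differences of at least 2-fold, with 6 lincRNA genes lower and 2 higher. The same held over all genes, with 2.34% lower and 0.992% higher. HIF1A-AS2 (ENSG00000258667, hg19 chr14:62182276-62217815, minus strand), whose identifier now carries the symbol HIF1A-AS3, runs antisense across HIF1A, the oxygen-regulated transcription factor. It was at 5.18 and 4.58 FPKM with vehicle and at 1.19 and 0.996 FPKM with MGH-CP1, and fell by 1.49 on the log2 scale (SE 0.11, limma adjusted p = 9.8e-05). HIF1A itself was at 88.6 and 96.5 FPKM with vehicle and at 163 and 169 FPKM with MGH-CP1 (0.84 ± 0.06, limma adjusted p = 9.2e-05). The pair thus moved in opposite directions. Whether the counting used strand is not given in the sources used here, and without strand reads of the pair cannot be told apart where they overlap. The lowest library held 9 reads of HIF1A-AS2, and voom on the recovered reads, which adds no FPKM pseudocount, gave a log2 difference of -2.11.

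UCA1 (ENSG00000214049, hg19 chr19:15939757-15947130, plus strand), first found in bladder cancer, was at 4.91 and 5.28 FPKM with vehicle and at 1.87 and 1.66 FPKM with MGH-CP1. It fell by 1.14 on the log2 scale (SE 0.10, limma adjusted p = 0.000184). LINC01638 (listed as RP5-1172A22.1) went from 2.97 and 2.24 FPKM to 0.454 and 0.555 FPKM (-1.26). RP11-879F14.2 went from 4.42 and 3.97 FPKM to 0.944 and 1.44 FPKM (-1.25), and SFTA1P, a pseudogene transcript, from 4.45 and 2.58 FPKM to 1.00 and 0.766 FPKM (-1.23). The lowest library held 5 reads of LINC01638, 12 of RP11-879F14.2 and 9 of SFTA1P. These genes and UCA1 were named only because their vehicle and MGH-CP1 libraries were apart, so that is no separate result. None has a neighbouring protein-coding gene that reached 1 FPKM.

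AC112721.2 (-0.92), MIR137HG (-0.89), LINC01224 (listed as CTB-175P5.4, -0.86), RP11-13N13.2 (-0.86) and ENSG00000233488 (a gene on chromosome 2 listed under a clone name, -0.84) followed. Low counts stood behind AC112721.2 (9 reads in its lowest library), RP11-13N13.2 (7 reads) and LINC01775 (19 reads), which is given below. MIR137HG had 21 reads in its lowest library. RP11-13N13.2, at 1.82 and 2.08 FPKM with vehicle and at 0.543 and 0.712 FPKM with MGH-CP1, overlaps SNRPD1, a core protein gene of the spliceosome, on the same strand. SNRPD1 went from 42.7 to 18.8 FPKM (-1.14). How reads of this overlapping pair were divided is not given in the sources used here, so the value of RP11-13N13.2 is uncertain. LINC01775 (listed as AC005624.2) was at 8.17 and 9.47 FPKM with vehicle and at 6.70 and 3.02 FPKM with MGH-CP1 (-0.82 ± 0.26, limma adjusted p = 0.0405). Its second MGH-CP1 library set the difference: without it the value was -0.35, and the call was lost, as it was without vehicle replicate 2 (-0.72). The call was also lost with no level filter, quantile normalization or no mean-variance trend. LINC01775 lies upstream of LMNB2, a nuclear lamina gene that fell from 153 to 70.4 FPKM (-1.11).

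Most rises were smaller. LINC00963 (ENSG00000204054, listed under a clone name) was at 7.89 and 7.31 FPKM with vehicle and at 13.0 and 13.7 FPKM with MGH-CP1 (0.74 ± 0.08, limma adjusted p = 0.000313). BAIAP2-AS1 went from 6.75 and 7.13 FPKM to 11.8 and 11.7 FPKM (0.68 ± 0.07, limma adjusted p = 0.000371). LINC00261, which lies beside the endoderm transcription factor gene FOXA2, went from 1.75 and 1.95 FPKM to 3.34 and 3.57 FPKM (0.64 ± 0.11, limma adjusted p = 0.00264). FOXA2 rose too, from 8.43 to 12.1 FPKM (0.48). Low counts stood behind RP11-336A10.5 (0.90, 4 reads in its lowest library), RP5-1057J7.7 (0.67, 5 reads) and RP11-218C14.8 (0.67, 4 reads). The call of RP11-336A10.5 was lost without MGH-CP1 replicate 2 (0.65), and that of RP11-218C14.8 without vehicle replicate 2 (0.34), MGH-CP1 replicate 1 (0.53) or MGH-CP1 replicate 2 (0.80). Both calls were also lost with no level filter. That of RP11-218C14.8 was further lost with a pseudocount of 0.1, no mean-variance trend or voom on the recovered reads.

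**Figure D2:**
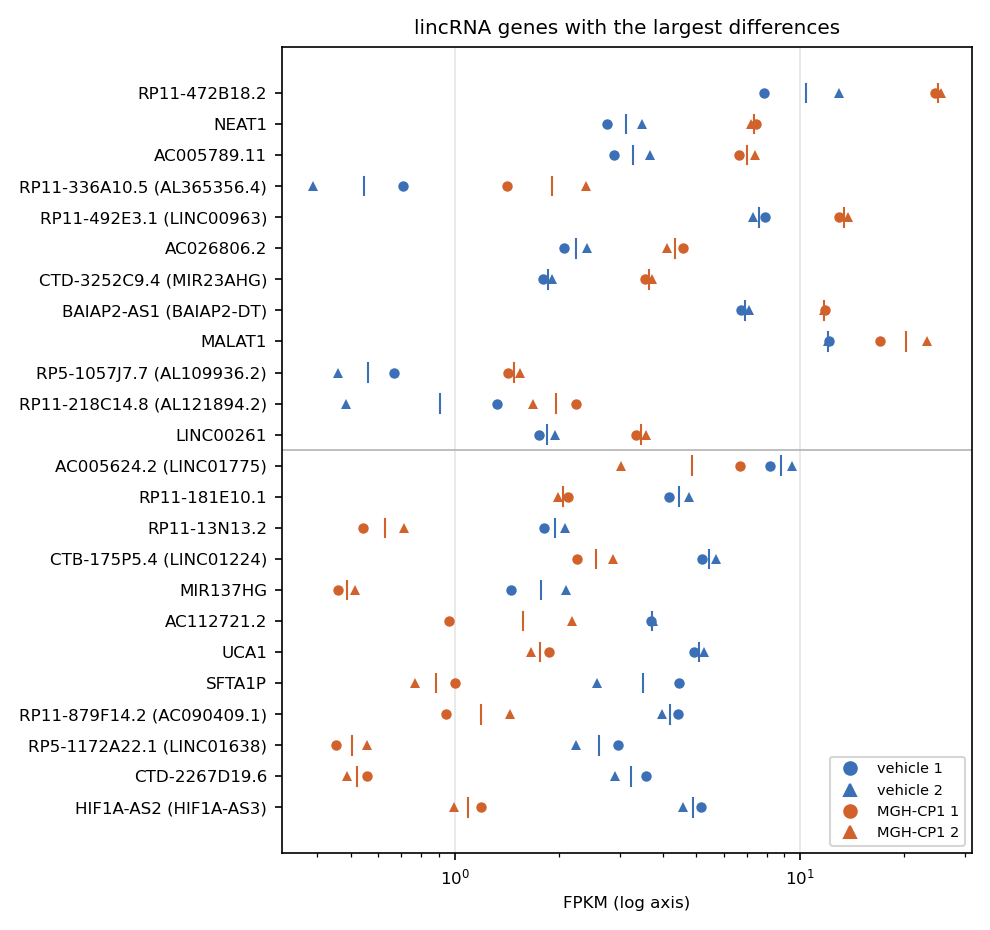
FPKM (log axis) in each library for the lincRNA genes with the 12 largest rises (above the line) and the 12 largest falls (below it) among called genes, with current names in brackets. Circles and triangles are replicates 1 and 2, blue is vehicle, orange is MGH-CP1 and the short lines are group means. Genes were shown only if both orange points lay on the same side of both blue points. The replicates of RP11-336A10.5, RP11-218C14.8, AC112721.2 and AC005624.2 lie far apart.

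MicroRNA host genes carried a distinct kind of product. By GENCODE 29, 11 of the lincRNA genes held 16 microRNA hairpins on their own strand. Mature microRNAs were not measured, since poly(A) libraries hold the host transcript and not the product. The main products of both called hosts of the list, and of another host that carries a pair of one family, are shown with the seed in capitals (bases 2 to 8, which pair with targets; RefSeq, GRCh38.p14), because the seed tells which of them share targets:
miR-23a-3p: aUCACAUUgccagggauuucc
miR-27a-3p: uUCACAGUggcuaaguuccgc
miR-24-3p: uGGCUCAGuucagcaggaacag
miR-137-3p: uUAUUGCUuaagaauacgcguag
miR-30a-5p: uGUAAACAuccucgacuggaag
miR-30c-5p: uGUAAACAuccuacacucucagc

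The first 3 come from MIR23AHG and have 3 different seeds. The last pair comes from LINC00472 and shares the seed GUAAACA. MIR23AHG (listed as CTD-3252C9.4, ENSG00000267519, hg19 chr19:13945330-13947103, minus strand) was at 1.8 and 1.91 FPKM with vehicle and at 3.55 and 3.72 FPKM with MGH-CP1. It rose by 0.70 ± 0.10 (limma adjusted p = 0.00156), and its convergent neighbour ZSWIM4 rose by 0.53. MIR137HG (ENSG00000225206, hg19 chr1:98453556-98515419, minus strand), the host of a microRNA known from neurons, was at 1.46 and 2.10 FPKM with vehicle and at 0.460 and 0.514 FPKM with MGH-CP1. It fell by 0.89 on the log2 scale (SE 0.16, limma adjusted p = 0.00335).

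The other hosts of the list were not called. LINC00472 was at 2.96 and 3.20 FPKM against 2.54 and 1.81 FPKM (-0.37), and was called without MGH-CP1 replicate 1 (-0.54). MIR22HG was at 3.07 and 3.36 FPKM against 3.39 and 3.26 FPKM (0.04), with overlapping groups. MIR3142HG, the host of miR-146a, an inhibitor of inflammatory signalling, was at 0.964 and 0.802 FPKM against 1.36 and 1.31 FPKM (0.31). Of 17 genes of microRNA maturation, 1 rose and 4 fell, with a median of -0.06. The count that fell is near the 25.1% of all genes, so it is no result about the list, and its members are given as single values. ZCCHC6, which adds uridines to precursors, rose from 9.30 to 13.2 FPKM (0.47), XPO5, the export factor of precursors, fell from 39.6 to 24.5 FPKM (-0.67) and DGCR8, the partner of DROSHA, fell from 9.69 to 6.38 FPKM (-0.53).

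Position beside a protein-coding gene divided the lincRNA genes further. Of the 213, 39 overlapped a protein-coding gene and 60 started within 10 kb downstream of one on the same strand. The nearest protein-coding gene was itself at or above 1 FPKM for 166. Over these pairs the log2 differences of the lincRNA gene and its neighbour had a Pearson r of 0.43 (Spearman 0.42). Within 10 kb r was 0.50 (130 pairs), and beyond 10 kb it was 0.12 (36 pairs). Over all pairs r was lower with each group mean at least 1 FPKM, as given in the section on processing. For single positions that filter was not tested. The 2 values of a pair come from the same libraries and genes are not independent replicates, so r is a description. In 43 pairs both genes were called. Both rose in 18, both fell in 19, and in 6 they moved in opposite directions. Over all genes tested 20.0% rose and 25.1% fell.

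By position, the largest class was downstream on the same strand. Within 10 kb there r was 0.70 over 59 pairs, and of 20 pairs with both genes called, both rose in 12, both fell in 6 and the lincRNA gene alone rose in 2. Convergent pairs within 10 kb had a higher r of 0.86 over only 7 pairs (0.73 over 11 pairs at any distance), with SMIM14 and RP11-472B18.2 among them. The Spearman values of the convergent pairs were 0.71 and 0.29, and that of the downstream pairs within 10 kb was 0.59. For divergent pairs within 10 kb r was 0.58 (25 pairs), and for lincRNA genes upstream on the same strand, at any distance, it was 0.04 (20 pairs). Overlap on the same strand gave 0.44 (16 pairs) and on the opposite strand -0.42 (14 pairs, a value in which HIF1A-AS2 is the far point). The Spearman values for overlap were 0.56 and -0.16. These differences between positions were not tested.

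CTD-2267D19.6 (ENSG00000270145, hg19 chr17:38459457-38460909, plus strand) fell the most of the called downstream genes. It passed the rule only through vehicle, with 12 reads in its lowest library. It starts 286 bases after CDC6, a gene of replication licensing that falls when cells leave the cycle. CDC6 was at 31.9 and 28.9 FPKM with vehicle and at 6.62 and 5.43 FPKM with MGH-CP1 (-2.16). CTD-2267D19.6 was at 3.57 and 2.91 FPKM with vehicle and at 0.557 and 0.487 FPKM with MGH-CP1 (-1.47 ± 0.13, limma adjusted p = 0.000176). AC005789.11, 1940 bases after SPRED3, an inhibitor of RAS signalling, was at 2.89 and 3.68 FPKM with vehicle and at 6.66 and 7.38 FPKM with MGH-CP1 (0.91), while SPRED3 went from 3.09 to 7.11 FPKM (0.99). AC026806.2 after the potassium channel gene KCNK6 (0.72 and 0.54) and RP5-1057J7.7 after TCEA3 (0.67 and 0.67) rose with their neighbours. RP5-1057J7.7 passed the rule only through MGH-CP1, with 5 reads in its lowest library. RP5-935K16.1 after POLR2D, a subunit of RNA polymerase II, fell with it (-0.56 and -0.79).

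Others had a neighbour that moved the other way. RP11-49C24.1 rose by 0.33 while SF3B3, the splicing factor gene before it, went from 40.9 to 27.5 FPKM (-0.56). RP11-211G23.2 rose by 0.39 downstream of MYEOV (-0.21). CTD-2369P2.2, which overlaps DNMT1 on the same strand, rose by 0.43 while DNMT1, the maintenance DNA methyltransferase, went from 76.2 to 32.9 FPKM (-1.19). For this pair too, the sources used here do not say how reads in the overlap were divided. LINC00963 rose while NTMT1 fell (-0.62), and RP11-46D6.1 rose by 0.58 while SHCBP1 went from 20.1 to 8.94 FPKM (-1.09).

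Divergent pairs included genes that now carry the name of their partner. ERRFI1-DT (listed as RP11-431K24.1), 430 bases from ERRFI1, the feedback inhibitor of the EGF receptor, rose from 0.820 and 0.612 FPKM to 1.30 and 1.59 FPKM (0.51), and ERRFI1 rose by 0.65. CRIM1-DT (listed as RP11-490M8.1) fell from 2.96 and 3.42 FPKM to 2.37 and 1.13 FPKM (-0.64), and CRIM1 went from 93.2 to 48.4 FPKM (-0.93). In both the groups were apart, although 1 MGH-CP1 library of CRIM1-DT lay near the vehicle values.

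**Figure D3:**
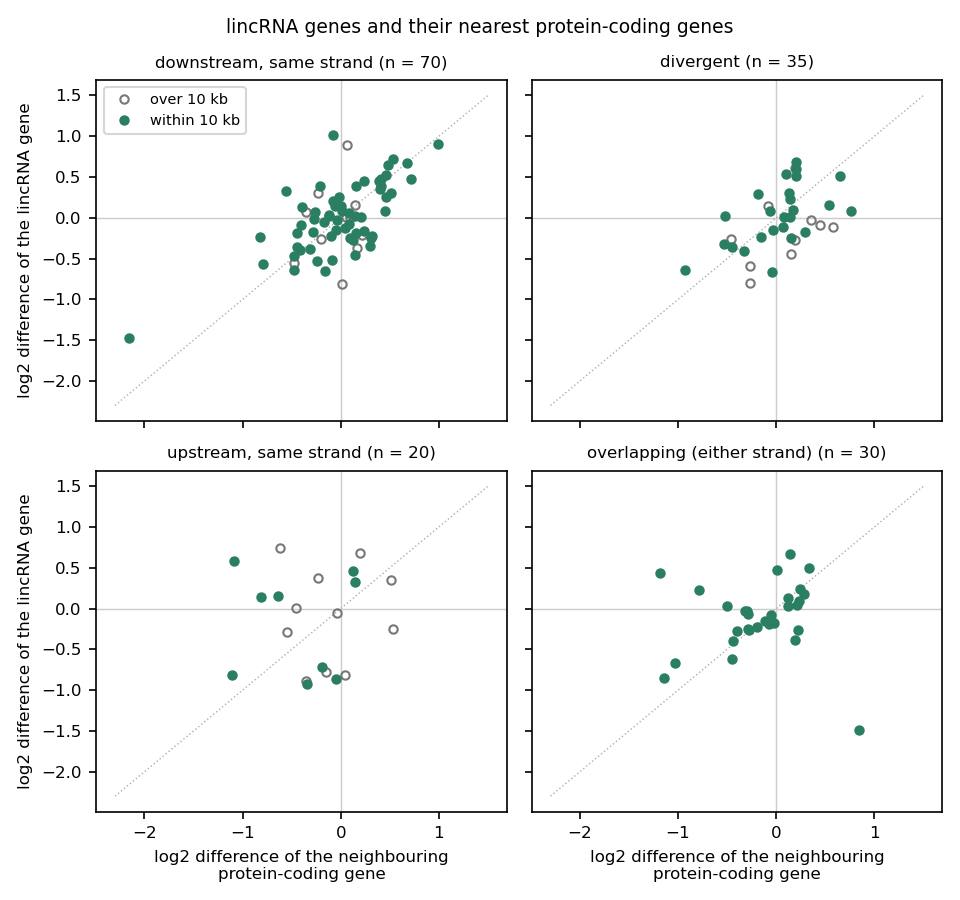
Log2 difference of the nearest protein-coding gene (x axis) against that of the lincRNA gene (y axis), both MGH-CP1 minus vehicle, in 4 panels by position, convergent pairs not shown. Filled points lie within 10 kb and open points farther, and the dotted line marks equal differences. The panel of downstream genes on the same strand holds the most pairs (70), with CTD-2267D19.6 at the lower left, and HIF1A-AS2 lies alone at the lower right of the overlapping genes.

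The later annotation separates these genes as well. The identifiers of 144 lincRNA genes were found in GENCODE 29 and those of 69 were not. Of the 69, 37 (53.6%) lay within 10 kb downstream of a protein-coding gene on its strand, against 13 of the 116 that GENCODE 29 still types lincRNA (11.2%). Of the 69, 15 rose and 13 fell, and of the 116, 19 rose and 23 fell, near the shares of all 213 lincRNA genes (17.8% and 19.2%) and of all genes (20.0% and 25.1%). A further 7 are typed protein-coding there, of which none rose and 3 fell (NCBP2-AS2, ZNF718 and MTLN). MTLN, listed as LINC00116, encodes a small mitochondrial protein. It was at 7.83 and 5.26 FPKM with vehicle and at 4.51 and 4.20 FPKM with MGH-CP1 (-0.47, limma adjusted p = 0.0431). That call was lost without vehicle replicate 1 (-0.23), MGH-CP1 replicate 1 (-0.52) or MGH-CP1 replicate 2 (-0.43). It was also lost with no level filter, median-ratio scaling, quantile normalization or no mean-variance trend. SMIM26, listed as LINC00493, another small mitochondrial protein, was at 31.2 and 28.7 FPKM against 31.4 and 27.3 FPKM.

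Promoters were searched for the hexamer CATTCC, the core of the element that TEAD proteins bind, on both strands. RefSeq (GRCh38.p14) held windows of 250 bases before to 50 after the start for 67 of the lincRNA genes. They were matched by Ensembl identifier, or by symbol where that gave no match. The hexamer was in 1 of 15 windows of genes that rose (6.67%), 3 of 18 of genes that fell (16.7%) and 9 of 47 of genes that were not called (19.1%), beside 14% of 35116 windows of all genes. NORAD was the gene that rose. The windows of NORAD (chr20:36050911-36051210, minus strand) and of LINC01775 (chr19:2462136-2462435, minus strand), a gene that fell, are shown with each match on either strand in capitals, to show the hexamer in a gene of each direction:
NORAD promoter: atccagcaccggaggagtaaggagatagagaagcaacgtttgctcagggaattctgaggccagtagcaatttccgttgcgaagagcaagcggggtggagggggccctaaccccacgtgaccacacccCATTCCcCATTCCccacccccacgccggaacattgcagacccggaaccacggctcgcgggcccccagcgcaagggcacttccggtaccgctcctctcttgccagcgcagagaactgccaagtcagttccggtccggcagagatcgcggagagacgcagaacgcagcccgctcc
LINC01775 promoter: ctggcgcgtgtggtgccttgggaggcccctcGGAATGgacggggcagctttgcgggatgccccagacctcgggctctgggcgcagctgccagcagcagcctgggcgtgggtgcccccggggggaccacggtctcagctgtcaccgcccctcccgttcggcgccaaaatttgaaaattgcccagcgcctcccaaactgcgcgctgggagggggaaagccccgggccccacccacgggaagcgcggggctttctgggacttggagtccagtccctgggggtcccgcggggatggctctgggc

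NORAD held 2 copies in a row and LINC01775 held 1 on the other strand. A match is a run of letters and not evidence of binding. The E-box CACGTG was in 4 of 15 windows of genes that rose (26.7%) and 1 of 18 of genes that fell (5.56%), beside 7.26% of all windows. The antioxidant response core TGACNNNGC was in 6 of 15 (40.0%) and 5 of 18 (27.8%), beside 13.3%. The E2F elements TTTCCCGC or TTTGGCGC were in 0 of 15 and 2 of 18 (11.1%), beside 2.27%. Among genes that were not called, the E-box was in 7 of 47 windows (14.89%). The antioxidant response core was in 8 of these 47 (17.02%) and the E2F elements in 4 (8.51%). These shares of uncalled lincRNA genes also lay above those of all windows. Differences between the sets of windows were not tested.

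A list of 57 lincRNAs commonly studied in cancer cells held 12 of the genes, of which 2 rose and 4 fell, with a median log2 difference of -0.30. MALAT1, NEAT1 and NORAD, which rose, were placed in the list of regulatory lincRNAs and are not counted here. With 20.0% higher and 25.1% lower among all genes, counts this small do not set the list apart. LINC00963 and LINC00261 rose. UCA1, CYTOR, LINC01605 (13.1 and 14.2 to 7.99 and 6.85 FPKM, -0.80 ± 0.09, limma adjusted p = 0.000502) and LINC00665 (2.32 and 2.42 to 1.54 and 1.77 FPKM, -0.34) fell. The other 6 were not called.

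Genes that clear noncoding RNA were measured too. Of 30 genes of the nuclear exosome, its adaptors and related factors, 19 fell and none rose, with a median of -0.26, beside 25.1% and 20.0% of all genes and a median of -0.02. EXOSC2, which is part of the RNA-binding cap of the exosome, went from 22.2 to 10.1 FPKM (-1.07 ± 0.08, limma adjusted p = 8.1e-05) and EXOSC9, of its ring, from 13.8 to 7.09 FPKM (-0.87 ± 0.08, limma adjusted p = 0.00019). Of 17 genes of nonsense-mediated decay, which degrades many spliced noncoding RNAs, 11 fell and none rose, with a median of -0.34, beside the same shares. UPF3B went from 7.03 to 3.07 FPKM (-0.98 ± 0.10, limma adjusted p = 0.000281) and MAGOH, of the exon junction complex, from 34.4 to 20.6 FPKM (-0.70 ± 0.11, limma adjusted p = 0.00219). Over the lincRNA genes themselves the median difference was -0.03.

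**Figure D4:**
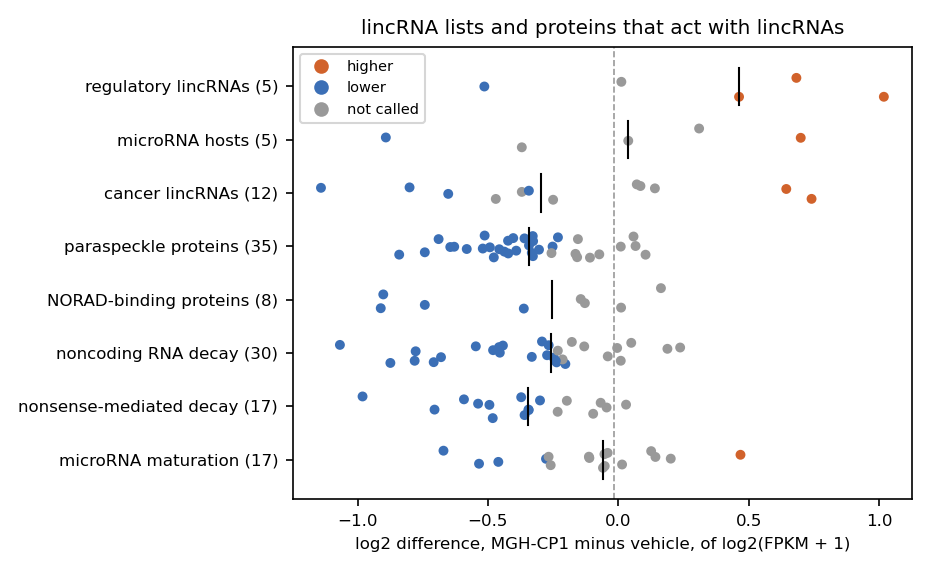
Log2 difference between MGH-CP1 and vehicle for the genes of 3 lists of lincRNAs and 5 lists of proteins that act with them, with the number of genes in brackets. Each point is a gene (orange higher, blue lower, grey not called), the black line is the list's median and the dashed line the median of all genes tested (-0.02). The medians of the paraspeckle, NORAD-binding and both decay lists lie between -0.34 and -0.25, and the regulatory lincRNAs spread to both sides.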

How the data were processed

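The deposited table gives FPKM per gene for the 4 libraries, with gene type, length and hg19 coordinates. Per the submitters' processing notes, CASAVA 1.8 and STAR were used with hg19. For the counting tool, its strand setting and the annotation release, the sources used here give nothing. FPKM times length gave whole reads (within 0.01) for 100% of the values below 1000 reads in each library, and these are the reads quoted. Genes averaging 1 FPKM or more were tested with limma 3.58.1 (R 4.3.3) on log2(FPKM + 1), with 2 libraries per group, a mean-variance trend and Benjamini-Hochberg adjustment. The pseudocount understates the change of low genes. The script was tested on simulated data. Neighbours come from the table's hg19 coordinates, and later names, types and transcripts from GENCODE 29 by Ensembl identifier. Named were the 10 highest genes, the members of 3 lists and the 3 genes on each side of the limit. The 12 largest rises and falls were named among called genes whose MGH-CP1 values both lay on 1 side of the vehicle values. Every called lincRNA gene met that condition. Examples of neighbour pairs were chosen after their values were seen. For each list of protein genes, the called genes with the largest differences were named. The members and lists were chosen with earlier results of these data known. Alternatives were the pseudocount, level filters, scaling, voom on recovered reads, the replicate block and leaving out each library. The value of 1 gene of the NORAD-binding list is not reported here.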

Additional observations from a re-analysis of the deposited data

How the results depend on the processing

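Of the 42 called genes that the naming rule chose, 34 kept their call under every one of up to 14 alternatives, 8 lost it at least once and none reversed. MALAT1, RP11-220I1.1 and AC112721.2 lost it with no level filter only, and other genes named in the report were not followed in this way. The count of lincRNA genes called higher (38) was 16 with no level filter, 19 of 54 at a mean of at least 5 FPKM, 25 of 92 with at least 50 reads in every library, and 22 to 46 when 1 library was left out. The count called lower (41) was 23, 14 and 17 under the same filters and 34 to 49 with 1 library left out. The 2 stricter filters left fewer lincRNA genes to count. The counts by reads were taken from the main calls without a new fit, so they could not exceed the main counts. The cause of the other differences in count was not tested. Over all genes the calls (2355 higher, 2956 lower) were 1568 and 2033 of 24640 with no filter. At a mean of at least 5 FPKM they were 1926 and 2422 of 8113. Voom called 69 lincRNA genes, of which 62 were shared in direction and none was opposite. Partner genes called higher (1) were 2 with median-ratio scaling, 3 with quantile normalization, 4 with voom and 1 to 4 with 1 library left out. Listed lincRNAs called lower (7) were 4 of 11 at 5 FPKM. The correlation with neighbours (0.43) was 0.32 with each group mean at least 1 FPKM, 0.62 at 5 FPKM, 0.50 within 10 kb and 0.37 to 0.43 with 1 library left out. With voom calls the TEAD hexamer was in 2 windows of genes that rose and 5 of genes that fell. The deviations of same-numbered libraries correlated at 0.05, so the numbers were not taken to pair them. A fit with the replicate block called 40 lincRNA genes higher and 44 lower, beside 2453 and 3036 of all 11790 genes.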

Other observations

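Chromosome 19 held 33 of the lincRNA genes. Of these 5 rose and 8 fell (39.4% called, beside 37.1% of all lincRNA genes).

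SNHG30, listed as RP11-1094M14.11 and so outside the rule on snoRNA host names, fell from 5.71 and 5.23 FPKM to 2.81 and 2.86 FPKM (-0.75 ± 0.09, limma adjusted p = 0.000751). The gene listed as hsa-mir-212 was at 4.43 and 3.25 FPKM with vehicle and at 4.20 and 9.11 FPKM with MGH-CP1, so 1 treated library lay among the controls and the other far above, with 6 reads in the lowest. SNORA71B, with 2 reads in its lowest library, was at 3.18 and 0.876 FPKM with vehicle and at 1.28 and 0.867 FPKM with MGH-CP1. These genes were chosen after their values were seen.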
